A study of Mus musculus with 6 samples.

Results

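The prostaglandin synthesis and receptor genes are 10 genes chosen by name: Pla2g4a, Ptgs1, Ptgs2, Ptges, Ptges2, Ptgis, Hpgd, Ptger2, Ptger3 and Ptger4. Of these, 9 could be followed among the 22180 genes measured; for Ptgs1, the constitutive cyclooxygenase gene, no probe set carried that symbol alone, and it was not analysed here. In the series, mouse colorectal cancer was implanted by injection either in white adipose tissue, the main fat store, or in non-adipose tissue, and the resulting tumours were profiled from 3 mice per site, 1 array each. Tumours were taken at 1 to 1.5 cm3. The labels give no cell line, mouse strain, age or fat depot, name no other treatment, and call the arrays biological replicates. Each value is the deposited log2 signal of 1 probe set, so a step of 1 is a doubling of signal; signals of different genes are not on a common scale of abundance.

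Prostaglandins are short-range lipid signals made from arachidonic acid. Cytosolic phospholipase A2, encoded by Pla2g4a, frees arachidonic acid from membranes, the cyclooxygenases encoded by Ptgs1 and Ptgs2 turn it into prostaglandin H2, and terminal synthases such as those of Ptges and Ptgis make prostaglandin E2 (PGE2) or prostacyclin from that. Hpgd encodes the dehydrogenase that inactivates PGE2, and Ptger2, Ptger3 and Ptger4 encode the PGE2 receptors EP2, EP3 and EP4. In colorectal tumours the pathway is known for raised cyclooxygenase-2, the Ptgs2 product, and for loss of Hpgd.

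Upstream sequence is shown for the 2 members that varied most between arrays, Ptgs2 and Hpgd, and for the member that varied least, Ptges2. Each run holds the 250 bases before the RefSeq start (GRCm38.p6), read 5′ to 3′ on the gene's strand, which is the plus strand for all of them. The windows are chr1:150099781-150100030 for Ptgs2, chr8:56294302-56294551 for Hpgd and chr2:32395640-32395889 for Ptges2. Capitals mark matches to the motifs searched.
Ptgs2: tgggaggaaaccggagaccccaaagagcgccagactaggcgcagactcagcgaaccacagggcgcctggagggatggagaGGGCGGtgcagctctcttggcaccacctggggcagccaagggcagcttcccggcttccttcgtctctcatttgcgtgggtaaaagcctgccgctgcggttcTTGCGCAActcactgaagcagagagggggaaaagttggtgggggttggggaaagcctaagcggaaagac
Hpgd: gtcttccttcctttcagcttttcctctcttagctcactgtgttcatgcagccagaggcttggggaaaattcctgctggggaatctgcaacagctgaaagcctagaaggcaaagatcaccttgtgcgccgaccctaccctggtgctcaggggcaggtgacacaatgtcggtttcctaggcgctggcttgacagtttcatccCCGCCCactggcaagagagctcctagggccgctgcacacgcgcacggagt
Ptges2: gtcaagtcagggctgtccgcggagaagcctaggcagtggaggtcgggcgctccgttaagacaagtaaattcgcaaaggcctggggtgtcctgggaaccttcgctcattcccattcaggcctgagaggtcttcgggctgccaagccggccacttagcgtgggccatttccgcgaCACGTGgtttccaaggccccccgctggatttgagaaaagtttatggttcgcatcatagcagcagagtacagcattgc
The capitals in Ptgs2 are a GC box (GGGCGG) and a C/EBP palindrome (TTGCGCAA), those in Hpgd a GC box on the other strand, and those in Ptges2 an E-box (CACGTG). Motifs were searched on both strands of 300-base windows, the 250 bases before the start and the 50 after it: the TATA box as TATAAA, the cAMP response element as TGACGTCA and its core element as CGTCA, the AP-1 site as TGANTCA, the E-box as CACGTG, the C/EBP site as TTNNGCAA, the GC box as GGGCGG and the CCAAT box under its own letters. RefSeq windows were at hand for 9 of the 10 members, Ptgis being the exception. In the Ptgs2 window the core of the cAMP response element and the E-box also occurred after the start. They lay at bases 14 to 18 and 17 to 22, overlapping by 2 bases. The Hpgd window held the letters TATAAA at bases 5 to 10, after the start and not before it. The same motifs were common elsewhere: of 32851 windows, 35.7% held the GC box, 20.8% the core of the cAMP response element, 13.6% the TATA box, 10.8% the C/EBP site and 7.15% the E-box. A match is a description of letters and not of binding.

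The arrays were alike in level, with medians of 5.66 to 5.69 and correlations of 0.982 to 0.992 between arrays over all probe sets, but white adipose replicate 1 carried a strong skin signal. The mean of 6 skin keratinocyte markers was 8.69 in that array, against 5.10 and 5.22 in the other white adipose tumours and a range of 5.14 to 5.98 at the non-adipose site. Mast cell markers (7 genes) averaged 6.18 there, 4.65 and 4.63 in the other white adipose arrays, and 4.59 to 5.48 in the non-adipose arrays. Each difference below is therefore also given without that array where its sign changed or it moved by over 1.5 times. Skeletal muscle markers (6 genes) stood apart at the other site: they averaged 5.39, 5.21 and 5.08 in white adipose replicates 1, 2 and 3, against 6.29, 5.13 and 6.98 in the non-adipose replicates, and all 6 had lower means in white adipose tumours, with a median difference of -0.61. Adipocyte markers did not set the sites apart: the mean of 5 genes ran from 5.05 to 5.37 in the white adipose arrays and from 5.04 to 5.14 in the non-adipose arrays, and Adipoq, the adiponectin gene, was at 4.10 to 4.27 and at 4.14 in all 3. Of the labelled tissue's markers, the epithelial keratin gene Krt8 was at 9.70 to 10.04 in the white adipose and 9.46 to 9.73 in the non-adipose arrays. Epcam, another epithelial marker gene, was low: it was at 4.82 to 5.08 in the white adipose and 4.61 to 5.29 in the non-adipose arrays, at percentile 29.1. The intestinal genes Cdx2 and Vil1 had low mean signals, at percentile 38.9 and percentile 23.3 among the genes measured, and no detection call was used.

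White adipose tumours were set against non-adipose tumours for each member, to ask whether the site of growth went with a different level of the pathway's transcripts. No member passed: by limma over all 22180 genes, with Benjamini-Hochberg adjustment, 0 of 9 were called higher or lower at 0.05, and the adjusted p-values ran from 0.936 to 1.00. Over all genes the fit called 0 as well (0.0% in each direction), while 841 genes (3.79%) were at an unadjusted p under 0.05. Of the members, 0 were. Groups of arrays did not overlap for 0 of the 9 members and for 7.31% of all genes. Mean signals were lower in white adipose tumours for 8 of the 9 members, with Ptges the exception, and for 50.3% of all genes. The 8 include Pla2g4a at -0.0044 and Ptgis at -0.0017, which were close to 0. Without white adipose replicate 1 the count was 7 of 9 (48.5% of all genes), and without non-adipose replicate 3 it was 6 of 9 (50.6%). The median difference of the members was -0.12 on the log2 scale, against -0.00043 over all genes. In bulk tumours fewer cells of a type and less RNA per cell cannot be told apart.

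**Figure D1:**
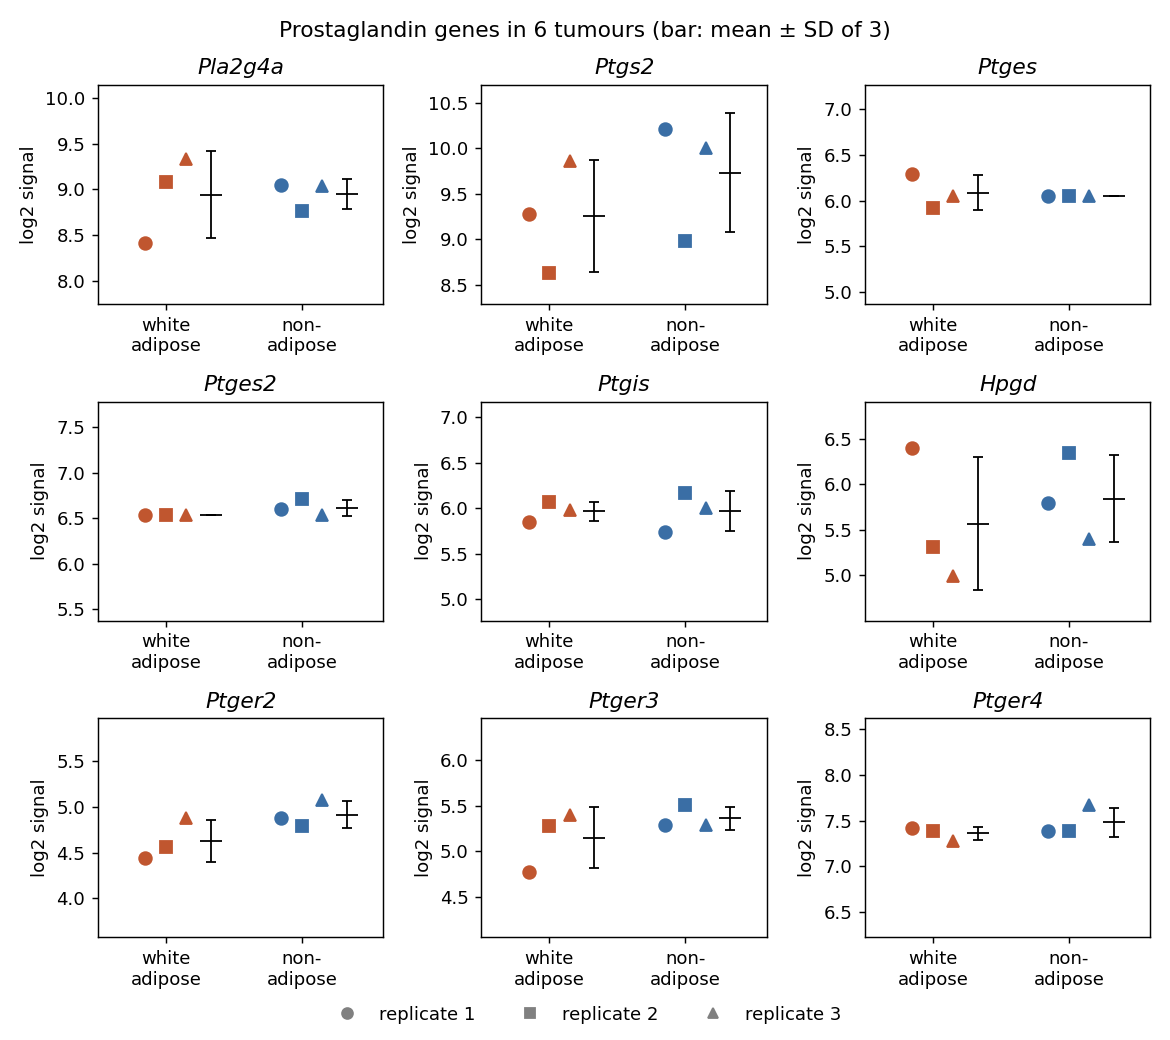
Log2 signal (y axis, each panel spanning the same 2.4 units) of the 9 measured genes in the 3 white adipose (orange, left) and 3 non-adipose (blue, right) tumours, with marker shapes for replicates and bars for mean ± SD. The groups overlap in every panel, and Ptgs2 and Hpgd spread most.

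Pla2g4a, which supplies the arachidonic acid, stood at 8.42, 9.08 and 9.33 in white adipose replicates 1, 2 and 3, against 9.05, 8.76 and 9.03 in the non-adipose replicates. White adipose replicate 1 was the lowest of all 6 arrays and replicate 3 the highest, so the white adipose group enclosed the non-adipose group. The means were 8.94 ± 0.47 in white adipose and 8.95 ± 0.16 in non-adipose tumours (SD, n = 3 each), a difference of -0.0044 (SE 0.24; 95% confidence interval -0.59 to 0.58). Without white adipose replicate 1, the array with the skin signal, Pla2g4a differed by 0.26 (-0.075 to 0.59; limma unadjusted p = 0.103, adjusted p = 0.646), and the groups no longer overlapped, as held for 2 of the 9 members and for 23.8% of all genes without that array. The part of skin in this move was not tested.

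Ptgs2, the inducible cyclooxygenase gene, gave 9.28, 8.63 and 9.86 in white adipose replicates 1, 2 and 3, against 10.21, 8.99 and 10.003 in the non-adipose replicates. Every white adipose replicate lay below the non-adipose replicate of the same number, but the labels do not say that numbers pair the tumours, and the groups overlapped widely. White adipose tumours averaged 9.26 ± 0.62 and non-adipose tumours 9.73 ± 0.65 (SD, n = 3 each). The difference was -0.48 (SE 0.42), equal to 1.39-fold lower, and its 95% interval of -1.50 to 0.55 spans 0.35-fold to 1.47-fold (limma unadjusted p = 0.303, adjusted p = 0.936). Leaving out 1 array at a time moved it between -0.85, reached without non-adipose replicate 2, and -0.16, reached without the same-numbered white adipose tumour. Ptgs2 was also the member with the widest spread: across the 6 tumours it covered 1.58 log2 units, or 2.99-fold, and its within-group SD of 0.64 lay at percentile 98.8 of all genes.

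The terminal synthases were flat by comparison. Ptges, the inducible microsomal PGE2 synthase gene, read 6.29, 5.92 and 6.05 in white adipose replicates 1, 2 and 3, against 6.05 in each of the 3 non-adipose tumours. The value was identical in 4 of the 6 arrays, which leaves the non-adipose group with an SD of 0. Such spreads are moderated by limma towards those of other genes. A value repeated between at least 2 arrays occurred in 35.3% of all genes. Ptges differed by 0.036 (SE 0.10; 95% interval -0.21 to 0.29), and by -0.067 without white adipose replicate 1, where it was highest. Ptges2, whose product was described as a second microsomal PGE2 synthase, read 6.54 in all 3 white adipose arrays, against 6.60, 6.71 and 6.54 in the non-adipose ones. It differed by -0.079 (SE 0.066), with an interval of -0.24 to 0.081, whose upper end is a 1.06-fold rise. Ptgis, the prostacyclin synthase gene, read 5.85, 6.07 and 5.98 in white adipose replicates 1, 2 and 3, against 5.74, 6.17 and 6.005 in the non-adipose replicates. Its difference was -0.0017 (SE 0.12; interval -0.30 to 0.30), and it was 0.055 without white adipose replicate 1.

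Hpgd, the gene of PGE2 breakdown, was at 6.39, 5.31 and 4.996 in white adipose replicates 1, 2 and 3, against 5.79, 6.34 and 5.40 in the non-adipose replicates. White adipose replicate 1 and non-adipose replicate 2 were high, and white adipose replicates 2 and 3 were the lowest of the 6. The group means were 5.57 ± 0.73 in white adipose and 5.84 ± 0.47 in non-adipose tumours (SD, n = 3 each), with a difference of -0.27 (SE 0.41; interval -1.27 to 0.72). Its within-group SD lay at percentile 98.6 of all genes, next to that of Ptgs2. Without white adipose replicate 1 the groups no longer overlapped and the difference was -0.69 (SE 0.29; interval -1.45 to 0.073), with limma's unadjusted p = 0.0678 and adjusted p = 0.632; without white adipose replicate 3 it was 0.010. Keratinocyte and mast cell markers were highest in white adipose replicate 1 too, but not in non-adipose replicate 2, where they averaged 5.14 and 4.96; their part in the Hpgd values was not tested.

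PGE2 itself was not measured. The signals of a gene that makes it and of the gene that inactivates it were compared within each array. Ptges minus Hpgd was -0.097, 0.61 and 1.05 in white adipose replicates 1, 2 and 3, against 0.26, -0.29 and 0.66 in the non-adipose replicates. The groups overlapped, with means of 0.52 ± 0.58 and 0.21 ± 0.47 (SD, n = 3 each) and a difference of 0.31. Leaving out the first white adipose tumour gave 0.62, and leaving out white adipose replicate 3 instead gave 0.044. A two-sided exact permutation test gave p = 0.5, where 0.1 is the smallest p that 3 against 3 arrays allow. Since Ptges hardly varied, Hpgd set most of this quantity.

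**Figure D2:**
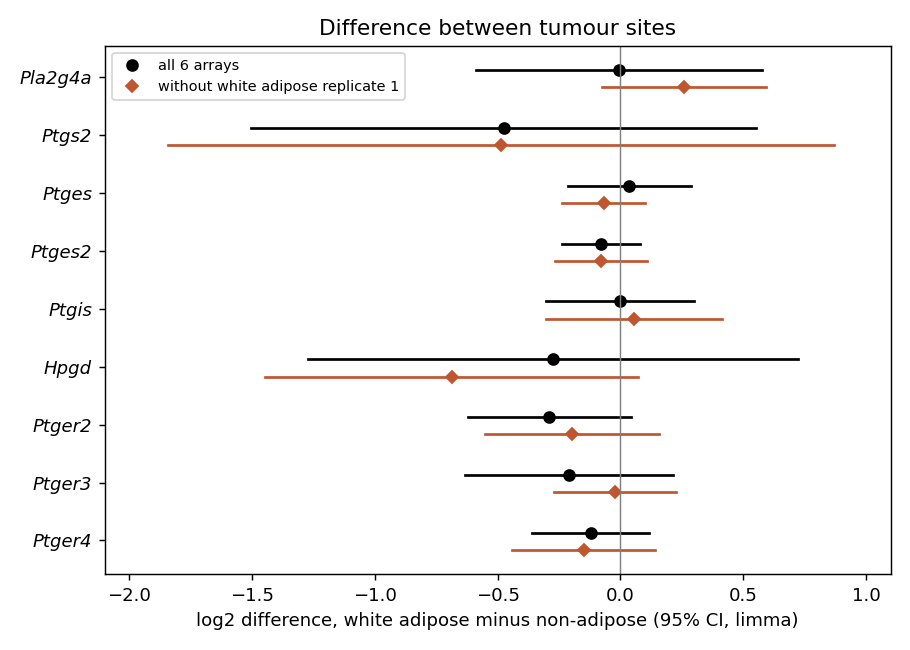
Log2 difference, white adipose minus non-adipose (x axis), with 95% confidence intervals from limma for the 9 measured genes, with all 6 arrays (black circles) and without white adipose replicate 1 (orange diamonds). Every interval includes 0, and Pla2g4a and Hpgd move furthest when that array is left out.

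All 3 measured receptor genes had lower means in white adipose tumours, within the spread of the arrays. Ptger2, encoding the cAMP-raising receptor EP2, was at 4.44, 4.56 and 4.88 in white adipose replicates 1, 2 and 3, against 4.88, 4.79 and 5.08 in the non-adipose replicates. White adipose replicates 1 and 2 were below every non-adipose array, and replicate 3 lay among them. The means were 4.63 ± 0.23 and 4.92 ± 0.15 (SD, n = 3 each), and the difference of -0.29 (SE 0.14; 1.22-fold lower; interval -0.62 to 0.042) had the smallest p of the members, limma's unadjusted p = 0.0765 with adjusted p = 0.936. It stayed between -0.42 and -0.20 with any 1 array left out. By its mean signal Ptger2 ranked at percentile 25.5 among the genes measured, so its lowest values may be background.

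Ptger3 encodes EP3, which mainly lowers cAMP. It was at 4.77, 5.28 and 5.40 in white adipose replicates 1, 2 and 3, against 5.28, 5.51 and 5.29 in the non-adipose replicates. The low array was white adipose replicate 1, and the rest lay close together. The difference of -0.21 (SE 0.17; interval -0.63 to 0.21) became -0.022 without that array. Ptger4, encoding EP4, the other cAMP-raising receptor, was at 7.42, 7.39 and 7.27 in white adipose replicates 1, 2 and 3, against 7.39, 7.39 and 7.67 in the non-adipose replicates. The value was identical in 3 of the 6 arrays, white adipose replicate 2 and non-adipose replicates 1 and 2. Non-adipose replicate 3 was the only high array: the difference of -0.12 (SE 0.098; interval -0.36 to 0.12) was -0.027 without it.

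**Figure D3:**
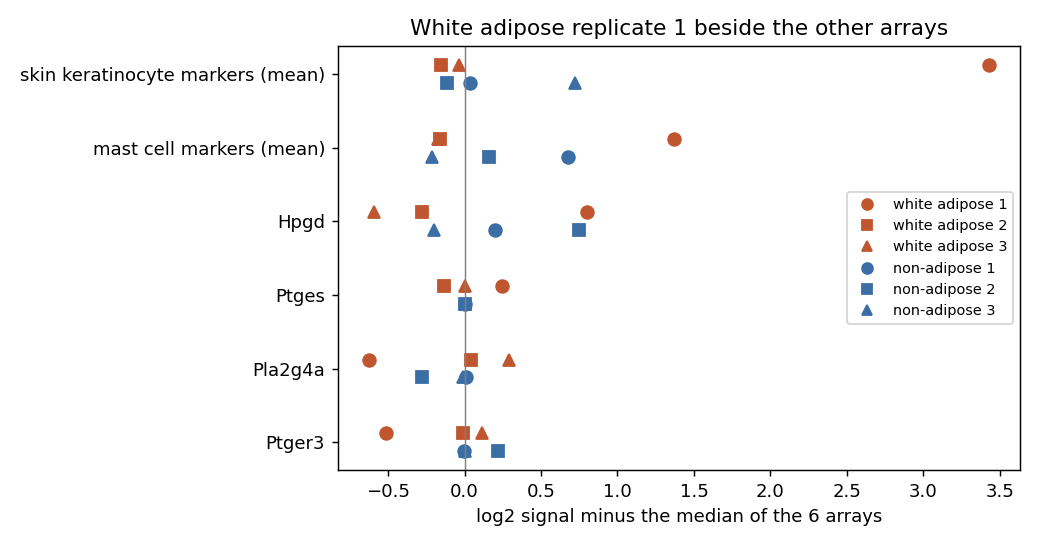
Log2 signal minus the median of the 6 arrays (x axis) for the mean of the skin keratinocyte markers, the mean of the mast cell markers and 4 prostaglandin genes; orange points are white adipose arrays and blue points non-adipose arrays. White adipose replicate 1 (orange circle) is the highest array for both marker lists, Hpgd and Ptges, and the lowest for Pla2g4a and Ptger3. All 4 genes shown have that array at an extreme. Of the members not shown, it was the lowest for Ptger2, and neither highest nor lowest for Ptgs2, Ptges2, Ptgis and Ptger4.

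The rest of the pathway gave no call either. Of 77 genes on 8 lists around the members, 69 were measured. White adipose tumours had the higher mean for 36 of them and the lower mean for 33, and 0 passed over all genes by limma. At an unadjusted p under 0.05 there were 3 (4.35%, against 3.79% of all genes): Pla2g4c, Zfp36 and Dusp1. That count dropped to 0 on leaving out non-adipose replicate 1 (2.95% of all genes in that fit). It was likewise 0 on leaving out white adipose replicate 2 (2.89% of all genes), and 1 on leaving out the third white adipose tumour (1.45%, against 3.04% of all genes). It was 6 without white adipose replicate 1 (8.70%, against 8.12% of all genes in that fit) and 5 on leaving out non-adipose replicate 2 (7.25%, against 4.04%). Groups did not overlap for 8 of the 69 (11.6%, against 7.31% of all genes), 2 of them higher and 6 lower in white adipose tumours.

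Among the other phospholipases and arachidonate-releasing enzymes, 10 of 12 had higher means in white adipose tumours, with a median difference of 0.088. Pla2g4c, a relative of Pla2g4a, was at 6.03, 6.41 and 6.61 in white adipose replicates 1, 2 and 3, against 5.90, 5.92 and 6.08 in the non-adipose replicates, a difference of 0.38 (SE 0.15). The secreted phospholipase gene Pla2g5 differed by -0.20 (SE 0.10), and Pla2g4f by 0.26 (SE 0.14), or 0.11 without white adipose replicate 1. Of 7 other prostanoid synthases and reductases 4 had higher and 3 lower means, between -0.15 (Ptges3) and 0.27 (Ptgds, the lipocalin-type prostaglandin D synthase gene). The smallest unadjusted p-values were those of Hpgds, the haematopoietic prostaglandin D synthase gene, at -0.12 (SE 0.070), Cbr1 at 0.11 (SE 0.078) and Prxl2b at 0.13 (SE 0.098). Without white adipose replicate 1, Ptgds was at 0.49 and Prxl2b at 0.045.

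Transport and inactivation genes had 2 higher and 3 lower means of 5, with Ptgr1, a reductase that acts on prostaglandins after Hpgd, at -0.24 (SE 0.25), or -0.44 without white adipose replicate 1. Of the 4 other prostanoid receptors 3 had higher means. Tbxa2r, the thromboxane receptor gene, did not overlap between groups: it was at 6.21, 6.32 and 6.12 in white adipose replicates 1, 2 and 3, against 6.11, 6.10 and 6.08 in the non-adipose replicates, a difference of 0.11 (SE 0.069). In the leukotriene branch, which uses the same arachidonic acid, 5 of 10 were higher and 5 lower. Ltc4s, the leukotriene C4 synthase gene, differed by -0.44 (SE 0.23), Alox5ap, whose product presents arachidonic acid to lipoxygenase, by -0.14 (SE 0.078), and Lta4h by 0.088 (SE 0.060), with groups that did not overlap for Alox5ap and Lta4h. Macrophage markers, of which Alox5ap is also typical, had array means of 9.45 to 9.56 in white adipose against 9.59 to 9.65 in non-adipose tumours over 6 genes, but 4 of the 6 had higher means in white adipose tumours and the median difference was 0.015; the lower ones were Mrc1 at -0.66 and Cd68 at -0.14. Their part in Alox5ap was not tested.

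Downstream of EP2 and EP4, transcripts of the relay from the G protein to CREB differed little with all 6 arrays. Of 9 genes 6 had higher and 3 lower means. All lay between -0.073 (Gnas, the stimulatory G protein gene) and 0.14 (Adcy7, an adenylyl cyclase gene). Without white adipose replicate 1, Adcy7 was at 0.25. Prkar1a, another gene of the relay, moved from 0.068 to 0.20 (limma adjusted p = 0.613 without that array). Of 10 cAMP-responsive genes 7 had lower means, with a median of -0.088. Dusp1, a MAP kinase phosphatase gene that also responds to many other stimuli, was at 8.81, 7.84 and 7.70 in white adipose replicates 1, 2 and 3, against 9.11, 8.90 and 9.02 in the non-adipose replicates, a difference of -0.90 (SE 0.29). The clock gene Per1 differed by -0.34 (SE 0.16) and the kinase gene Sik1 by -0.42 (SE 0.21). In each of these 3 genes white adipose replicate 1 lay nearer to the non-adipose arrays than replicates 2 and 3 did. Without that array Dusp1 was at -1.24 and Sik1 at -0.64, and neither passed (limma adjusted p-values from 0.2499 to 0.556).

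Inducers and regulators of Ptgs2 had lower means in 9 of 12, with a median of -0.11. Zfp36, whose protein promotes decay of AU-rich mRNAs including that of Ptgs2, was at 8.23, 7.34 and 7.52 in white adipose replicates 1, 2 and 3, against 8.39, 8.21 and 8.70 in the non-adipose replicates, a difference of -0.74 (SE 0.25; limma unadjusted p = 0.0262, adjusted p = 0.936), or -1.003 without white adipose replicate 1. Il1r1, the interleukin-1 receptor gene, differed by -0.12 (SE 0.062), and Celf2, an RNA-binding protein gene, by -0.17 (SE 0.10), both without overlap of the groups.

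Across the tumours, irrespective of site, Ptgs2 ranked the arrays much as Il1b and Tnf, the genes of 2 cytokines known to induce it, did, in a relation that did not pass adjustment, while Il1a, the gene of interleukin-1 alpha, another inducer, did not share that order; Il1b, Tnf and Cebpd were picked out after their values were seen. Il1b, the interleukin-1 beta gene, was at 7.27, 6.97 and 7.49 in white adipose replicates 1, 2 and 3, against 8.44, 6.88 and 7.73 in the non-adipose replicates. Tnf, the tumour necrosis factor gene, was at 7.42, 7.34 and 7.53 in white adipose replicates 1, 2 and 3, against 8.002, 7.32 and 7.76 in the non-adipose replicates. The arrays fell in the same order for Ptgs2, Il1b and Tnf from non-adipose replicate 1 down through non-adipose 3, white adipose 3 and white adipose 1, and only the lowest pair, white adipose 2 and non-adipose 2, changed places.

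Over the 6 arrays Pearson's r with Ptgs2 was 0.90 for Il1b (exact permutation p = 0.0125) and 0.89 for Tnf (exact permutation p = 0.0111), and Spearman's rho was 0.94 for both (exact permutation p = 0.0167). Adjusted over the 12 genes of the list, these p-values became 0.075 for r and 0.0667 for rho by the same exact permutation tests, so neither relation passed. With the arrays farthest from the Ptgs2 median left out, white adipose replicate 2 and non-adipose replicate 1, r over the other 4 was 0.97 for Il1b and 0.93 for Tnf, but those 4 arrays did not set these genes apart, since r there was also 0.96 for Il1a and 0.90 for Tia1, an RNA-binding protein gene, whose r over all 6 arrays was 0.30 and -0.55. Il1a was at 5.67, 6.28 and 6.08 in white adipose replicates 1, 2 and 3, against 6.02, 5.02 and 6.15 in the non-adipose replicates, with rho of -0.029 (exact permutation p = 1.0). Cebpd, the gene of a C/EBP factor, had r of 0.70 (exact permutation p = 0.0667, adjusted 0.267) and rho of 0.94 (exact permutation p = 0.0167, adjusted 0.0667), with r of 0.84 on those 4 arrays. Its whole range was small, 5.80, 5.78 and 5.88 in white adipose replicates 1, 2 and 3, against 5.89, 5.78 and 6.11 in the non-adipose replicates. Zfp36 had r of 0.53 (exact permutation p = 0.290) and rho of 0.77 (exact permutation p = 0.103). Neutrophil markers (7 genes) averaged 4.79, 5.14 and 5.13 in white adipose replicates 1, 2 and 3, against 5.72, 4.78 and 5.57 in the non-adipose replicates, so non-adipose replicates 1 and 3 were the high arrays there too; the same held for the skeletal muscle markers, at 6.29 and 6.98. The part of such cells in Ptgs2 was not tested.

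Within each site the 3 arrays fell in the same order for Ptgs2, Il1b and Tnf: white adipose 3, 1 and 2, and non-adipose 1, 3 and 2, from the highest down. With the mean of each site subtracted, an alternative chosen after seeing the data, r was 0.87 for Il1b and likewise 0.87 for Tnf. Each had an exact permutation p of 0.0278, the smallest that the 36 orders within sites allow, and 0.111 after adjustment over the 12 genes. Neither passed, but with only a few of the 12 genes at that smallest p the adjusted value could not reach 0.05. Celf2, at r of -0.93, had those same p-values by that exact permutation test, in the opposite direction.

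**Figure D4:**
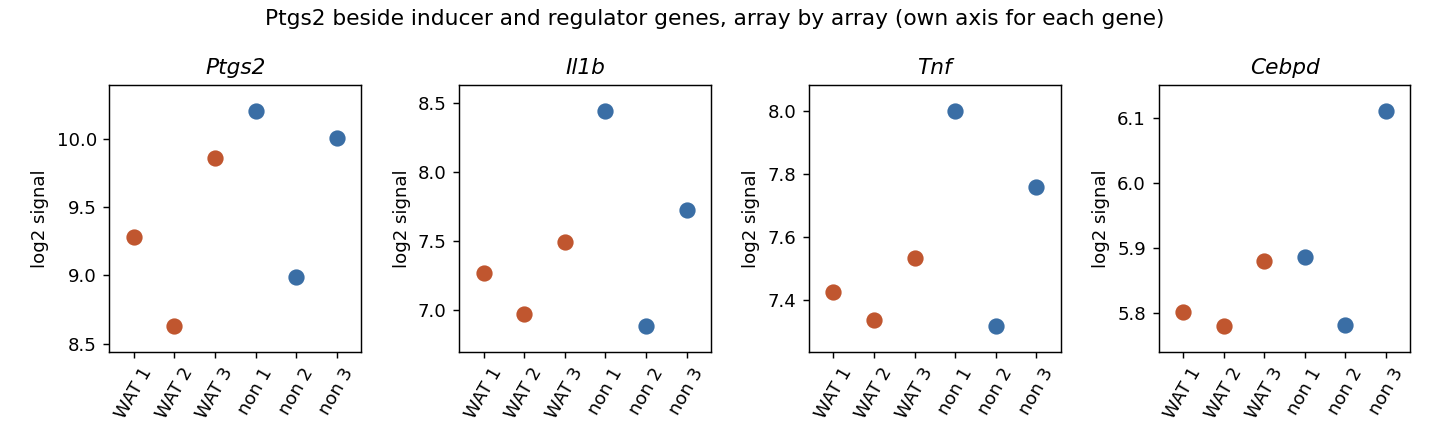
Log2 signal (y axis, its own scale in each panel) of Ptgs2, Il1b, Tnf and Cebpd in each array (x axis; WAT, white adipose, orange; non, non-adipose, blue). In all 4 panels white adipose replicate 3 and non-adipose replicates 1 and 3 are the 3 highest arrays.

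Ptgs2os is a noncoding RNA gene that starts 157 bases before Ptgs2 on the opposite strand in RefSeq, within the Ptgs2 window printed above; it was looked at after the members' values were seen. It was at 5.47, 6.66 and 6.81 in white adipose replicates 1, 2 and 3, against 5.80, 5.74 and 6.08 in the non-adipose replicates. White adipose replicates 2 and 3 were the high arrays, and replicate 1, with the skin signal, was the lowest. The difference of 0.44 (SE 0.36; interval -0.43 to 1.30) did not pass (limma unadjusted p = 0.264, adjusted p = 0.936). Without that array the difference was 0.86 (SE 0.13; interval 0.53 to 1.18) and the groups no longer overlapped, with limma's unadjusted p = 0.00110 and adjusted p = 0.485. In that fit 8.12% of all genes were at an unadjusted p under 0.05, and groups did not overlap for 23.8%. The order of arrays for Ptgs2os was not that of Ptgs2, for which white adipose replicate 2 was the lowest.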

How the data were processed

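Total RNA of 6 tumours was labelled as biotinylated cDNA and hybridised to Affymetrix whole-transcript arrays, per the labels' protocols. The authors deposited log2 signals for 41345 probe sets on 6 arrays, made with Affymetrix Expression Console, per the submitters' processing notes. How the arrays were background-corrected and normalized was not given in the sources. The values ran from 0.973 to 13.6 and came without detection calls, slides or scan dates, so batches were not tested. The number of arrays limits the precision.

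Probe sets with exactly 1 gene symbol in the platform annotation (23521) were kept, and for the 1082 genes with several the brightest by mean over 6 arrays was used, which left 22180 genes. Exact repeats of a value between arrays occurred in 7838 genes. White adipose minus non-adipose differences came from lmFit and plain eBayes in limma 3.58.1 (R 4.3.3), without trend, robust or block terms, with Benjamini-Hochberg adjustment over all genes and a threshold of 0.05. The median SE was 0.0972. Exact permutation tests were two-sided (Python 3.11.15). The fit was tested on simulated data.

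The members and lists were chosen with earlier results of these data known. Named were all members and, from each list, up to 3 genes with the smallest unadjusted p. Outside that rule Ptges3 and Ptgds were named as ends of a range, and Il1a, Tia1 and Prkar1a for comparison. Single markers such as Mrc1 and Cd68 were also named. The rest are said to have been picked later. Alternatives were trend and robust moderation, a filter on dim genes (25th percentile), quantile normalization, median centring, array weights, all probe sets averaged, the replicate number as a block, and each array left out. Site means subtracted before correlating Ptgs2, and named pathway genes without white adipose replicate 1, were added after seeing the data. Limma's p-values set a difference against the spread between these tumours, moderated towards that of other genes. Exact permutation p-values come from reordering these arrays. Listed symbols were matched by symbol or Entrez identifier.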

Additional observations from a re-analysis of the deposited data

How the results depend on the processing

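No member and 0 genes passed limma's adjusted threshold under any of the 13 alternatives run, the smallest adjusted p of a member being 0.632 (Hpgd, without white adipose replicate 1); the count of genes at an unadjusted p under 0.05 ran from 640 to 1800. At an unadjusted p under 0.05 stood 1 of the 9 members, Ptger2, with quantile normalization, with centring and without white adipose replicate 3. Of all genes, 3.71%, 3.93% and 3.04% were under 0.05 in those fits. The number of surrounding pathway genes at an unadjusted p under 0.05, 3 as reported, was 6 with array weights (8.7%, against 7.31% of all genes). With 1 array left out it was 0 to 6, while the share of all genes ran from 2.89% to 8.12%. Array weights turned Ptges to -0.023, Ptgis to 0.047 and Pla2g4a to 0.16, and quantile normalization turned Pla2g4a to 0.0089. With 1 array left out, Ptges ran from -0.067 to 0.12, Ptgis from -0.12 to 0.097, Hpgd from -0.69 to 0.010 and Pla2g4a from -0.20 to 0.26, each crossing 0; the cause was not tested. Ptgs2, Ptges2, Ptger2, Ptger3 and Ptger4 kept a negative difference under all alternatives run. Ptges minus Hpgd ran from 0.044 to 0.62 with 1 array left out, and kept its sign. Deviations from the site means correlated over genes at 0.14, 0.064 and 0.064 between same-numbered tumours. Between differently numbered tumours the correlations were mostly negative, from -0.18 to 0.086, the highest being white adipose replicate 2 with non-adipose replicate 3. Because deviations sum to 0 within a site, these values cannot decide whether the numbers pair the tumours. The labels do not say that they do, so the main fit had no block. With the replicate number as a block, Ptgs2 stayed at -0.48 (limma unadjusted p = 0.0467, adjusted p = 0.885). Ptger2 stayed at -0.29 in that fit (limma unadjusted p = 0.0212, adjusted p = 0.885). With the block 1081 genes (4.87%) were at an unadjusted p under 0.05, against 841 (3.79%) without it, and 0 passed after adjustment in either. The planned comparison of Ptgs2 with Ptgs1 was not run, since Ptgs1 had no probe set of its own symbol here. Without detection calls, low members such as Ptger2 cannot be told from background.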

Other observations

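Ptgs2 is often grouped with the immediate early genes. The array order of Fos, looked at after the values were seen, matched that of Ptgs2 only in part. Fos, an AP-1 transcription factor gene, was at 7.88, 6.18 and 6.46 in white adipose replicates 1, 2 and 3, against 8.28, 8.01 and 8.84 in the non-adipose replicates, a difference of -1.54 (SE 0.47) that did not pass (limma adjusted p = 0.936), nor did -2.06 without white adipose replicate 1 (limma adjusted p = 0.382). White adipose replicate 3, among the lowest arrays for Fos, stood at 9.86 for Ptgs2, close to non-adipose replicate 1 at 10.21 and replicate 3 at 10.003. Non-adipose replicate 2, at 8.01 for Fos, was among the lowest for Ptgs2 at 8.99. Non-adipose replicates 1 and 3 were the highest arrays for both genes, and white adipose replicate 2 was the lowest for both. No correlation of Fos with Ptgs2 was computed.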
